A study of Mus musculus with 12 samples.

Results

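The genes described here code for the membrane carriers that move amino acids and some of their relatives, such as taurine, creatine and monoamines, into and out of cells. They were chosen by symbol: every gene that the array annotation names Slc1a, Slc3a, Slc6a, Slc7a, Slc36a, Slc38a or Slc43a followed by a number was taken, apart from Slc1a3, and each gene was read through its probe set of highest mean signal. This gave 62 of the 18193 genes measured, of which 6 are in Slc1a, 2 in Slc3a, 21 in Slc6a, 16 in Slc7a, 5 in Slc36a, 9 in Slc38a and 3 in Slc43a. Slc36a1os, Slc6a19os and Slc7a6os match the symbol pattern but are named for the opposite strand of their neighbours and are not known carriers.

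The genes were followed across 5 keratinocyte fractions that were sorted from mouse back skin to compare rarely with often dividing epidermal cells. The fractions were GL (n = 2), SL LRC (n = 2), SL non-LRC (n = 2), BL LRC (n = 3) and BL non-LRC (n = 3). The labels do not spell these names out; from what is known of the study, GL, SL and BL are read as the granular, spinous and basal layers, and LRC as label-retaining cells, which keep a histone label because they divide rarely. The mice of all 5 groups carried Rosa-tdTomato and K14-CreER together with pTRE-H2B-GFP and K5-tTA, so the label was laid down wherever the keratin 5 promoter is active, and Cre wherever the keratin 14 promoter is. Every group also shared the treatment: doxycycline in the food (1 g per kg, for 2 weeks) shut the label off, tamoxifen was injected at a single dose of 75 mg/kg, and skin was taken 1 week after the injection, in second telogen. Neither the sorting gates nor the strain and age of the mice were stated. It was also not stated whether samples came from separate animals, so each p-value reflects how far these samples varied, which may be technical variation.

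Carriers of this kind work in different ways: some couple uptake to sodium or to protons, some exchange one amino acid for another, and some let large neutral amino acids run down their gradient. The light chains Slc7a5, Slc7a6, Slc7a7, Slc7a8, Slc7a10 and Slc7a11 reach the plasma membrane bound to a heavy chain, Slc3a2 (CD98), whereas Slc7a9 pairs with Slc3a1. In epidermis amino acids feed the synthesis of keratins and of filaggrin, whose breakdown in the outer layers gives the free amino acids that hold water in the skin surface. Amino acid supply is also read by mTORC1 at the lysosome, where Slc38a9 and Slc36a1 sit, and by the Gcn2 and Atf4 pathway, which in many cells raises the genes of several of these carriers.

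Expression was measured on arrays as linear signal, scaled by the authors to the same trimmed mean, and compared on the log2 scale with limma. Each log2 difference below is given ± its moderated standard error, as the first fraction named minus the second, and each adjusted p is taken over all genes tested. Background was set per array at 22.4 to 42.5 units, the 95th percentile of 27 bacterial probe sets, and 68.5% to 78.4% of genes lay above it. Replicates of a group correlated across genes at r = 0.925 to 0.932. The arrays fell into 2 sets by BioB, a bacterial control transcript added at hybridisation: 8 arrays averaged 3370 ± 305 units, and 4 averaged 495 ± 29.5 units (SD). The low set held both SL non-LRC arrays and the first array of each BL group (BL LRC 1, BL non-LRC 1), so in SL the array set and the label cannot be told apart. BL LRC 1 and BL non-LRC 1 also had 0 of 3 Y-linked genes above background, against 3 of 3 on the other 10 arrays. The layer labels were checked against marker genes: 7 of 8 granular markers were higher in GL than in BL, and 4 of 7 basal markers were lower. The remaining granular marker, Tgm3, was lower in GL (-3.07 ± 0.27, adjusted p = 5.32e-07). Against SL, 3 granular markers were higher in GL and 1 lower. Of 6 spinous markers 3 were higher in SL than in BL and none differed between GL and SL.

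Of the 62 genes, 24 were above background on all 12 arrays (38.7%, against 57.0% of all genes), 35 on some arrays, and 3 on none, namely Slc6a11, Slc7a13 and Slc36a1os. A total of 19 genes differed in at least 1 of the comparisons at an adjusted p under 0.05, and 43 in none. In a bulk sample, fewer cells of a type and less RNA per cell cannot be told apart, and this holds for every difference below.

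GL cells differed from BL cells in 18 of the 62 genes (29.0%), while 17.1% of all genes tested differed. The 8 that were higher in GL, a direction taken by 8.66% of all genes, were Slc43a2, Slc7a8, Slc38a1, Slc6a20a, Slc6a8, Slc36a1, Slc36a2 and Slc36a4. The 10 that were lower, as were 8.41% of all genes, were Slc7a5, Slc7a6, Slc7a1, Slc7a14, Slc43a1, Slc1a4, Slc38a2, Slc6a6, Slc6a2 and Slc6a4. The median log2 difference of the 62 genes was -0.095, against -0.023 over all genes. GL also differed from SL in 11 of 62 genes (17.7%, against 8.3% of all genes), with 5 higher (4.39% of all genes) and 6 lower (3.91%). SL differed from BL in 8 of 62 (12.9%, against 5.03% of all genes), with 3 higher (2.83% of all genes) and 5 lower (2.2%). The median differences were 0.19 for GL against SL and -0.10 for SL against BL, and over all genes -0.028 and 0.0025. Comparisons that share a fraction are not independent of each other.

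**Figure D1:**
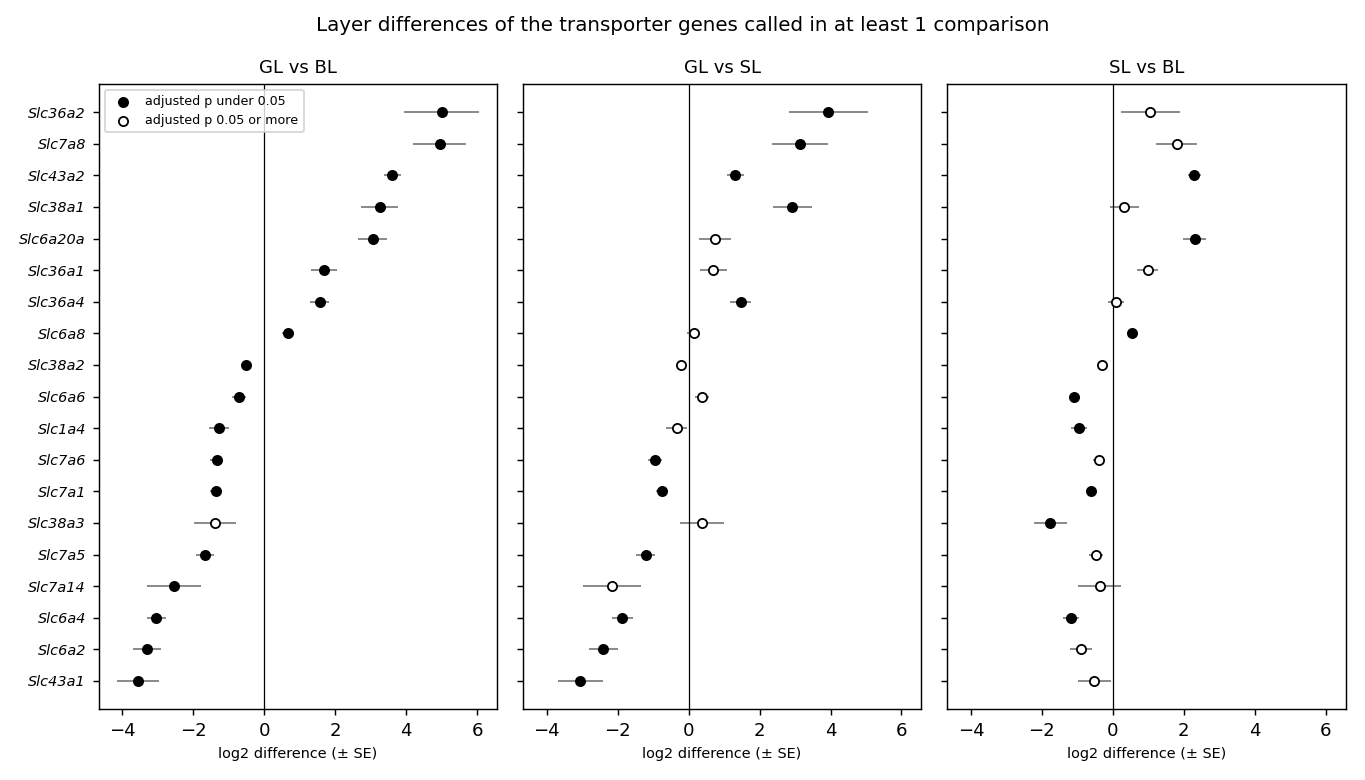
Log2 difference (± SE, horizontal axis) between GL and BL, GL and SL, and SL and BL for the 19 genes called in at least 1 comparison; filled points have an adjusted p under 0.05. Slc36a2, Slc7a8 and Slc43a2 lie furthest right in GL against BL and Slc43a1, Slc6a2 and Slc6a4 furthest left. The values fitted for Slc36a2, Slc7a8, Slc43a1, Slc7a14 and Slc38a3 include signals under background, so their places show a direction and not a measured size. The values of Slc6a20a against BL include 1 such signal.

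Among the heterodimeric exchangers, the light chains went different ways while no call was made for the shared heavy chain. Slc7a8 (LAT2, chr14:54722215-54781886 of GRCm38.p6), an exchanger of neutral amino acids, had signals of 849 and 930 in GL, 42.8 and 52.4 in SL LRC, 133 and 337 in SL non-LRC, 4.5, 30.7 and 45.4 in BL LRC, and 48.8, 26 and 71.6 in BL non-LRC. Both GL arrays lay above every other array, and 4 of the 6 BL arrays were above background. The mean BL signal lay at the background, so no size is given for GL against BL (adjusted p = 1.48e-04). SL against BL was not called, but passed as higher in SL with the array set in the model (adjusted p = 0.0408) and with the replicate block (0.0274). For GL against SL, where all 4 SL arrays were above background, the log2 difference was 3.15 ± 0.79 (adjusted p = 0.0194). This call was lost without GL 1 (adjusted p = 0.145), GL 2 (0.136), SL LRC 1 (0.0511) or SL non-LRC 1 (0.0678), and with the array set in the model (2.43, adjusted p = 0.0951).

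Slc7a5 (LAT1, chr8:121881146-121907686), which brings leucine and other large neutral amino acids into growing cells, had signals of 307 and 297 in GL, 625 and 592 in SL LRC, 730 and 865 in SL non-LRC, 1254, 1025 and 715 in BL LRC, and 703, 1010 and 1231 in BL non-LRC. The GL pair lay below all other arrays and the SL arrays overlapped with BL. Slc7a5 fell in GL, with a log2 difference of -1.67 ± 0.25 against BL (adjusted p = 1.54e-04). Slc7a6 (y+LAT2, chr8:106168219-106198714), which exchanges arginine for neutral amino acids, had signals of 704 and 1049 in GL, 2190 and 1945 in SL LRC, 1571 and 1130 in SL non-LRC, 2316, 2312 and 2315 in BL LRC, and 2042, 1986 and 2176 in BL non-LRC. It was lowest on the GL arrays and nearly level across BL LRC. Its log2 difference was -1.35 ± 0.18 against BL (adjusted p = 5.59e-05) and -0.95 ± 0.19 against SL (adjusted p = 0.00518), and a further probe set of the gene gave the same calls. Against SL, Slc7a5 also fell (-1.20 ± 0.27, adjusted p = 0.00938). Without GL 1 the calls against SL were lost for Slc7a5 (adjusted p = 0.0797) and Slc7a6 (-0.66, 0.151), and without GL 2 for Slc7a5 (0.0730).

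The heavy chain Slc3a2 (chr19:8706882-8723369) had signals of 3354 and 2924 in GL, 2044 and 2647 in SL LRC, 1938 and 2834 in SL non-LRC, 2671, 3071 and 3123 in BL LRC, and 3044, 3423 and 3788 in BL non-LRC. GL and BL overlapped, with a log2 difference of -0.02 ± 0.17, adjusted p = 0.969, and SL against BL gave -0.44 ± 0.14 (adjusted p = 0.0818). Slc3a1, the heavy chain of the cystine carrier, was above background on all 12 arrays and differed by -0.05 ± 0.33 between GL and BL (adjusted p = 0.949), with overlapping arrays. Slc7a11 (xCT), the cystine and glutamate exchanger, was above background on 2 arrays, with 76.4 units on GL 2 and 3.74 on GL 1. Slc7a9 and Slc7a10 were also above background on 2 arrays each and Slc7a7 on 7, and none of the 4 was called in any comparison.

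The uniporters of large neutral amino acids, Slc43a2 and Slc43a1, differed between GL and BL in opposite directions. Slc43a2 (LAT4, chr11:75529915-75577575), which lets branched-chain amino acids, methionine and phenylalanine leave cells, had signals of 9599 and 9462 in GL, 1741 and 2532 in SL LRC, 7658 and 6350 in SL non-LRC, 738, 413 and 682 in BL LRC, and 977, 1325 and 834 in BL non-LRC. The groups did not overlap between layers: GL was above SL and SL above BL on every array. The log2 difference was 3.61 ± 0.23 for GL against BL (adjusted p = 2.01e-08), 1.32 ± 0.24 for GL against SL (adjusted p = 0.00251), and 2.30 ± 0.18 for SL against BL (adjusted p = 1.25e-06). A further 2 probe sets of the gene were called the same way in all of these, with GL above BL by 3.71 and 4.64. On the high-BioB arrays alone SL LRC stood above BL LRC by 1.98 (adjusted p = 0.0048), and among the low-set arrays the SL non-LRC pair stood above BL non-LRC 1 by 2.84.

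Slc43a1 (LAT3, chr2:84838855-84863586) carries a similar set of amino acids and had signals of 8.61 and 43.4 in GL, 299 and 346 in SL LRC, 136 and 46.3 in SL non-LRC, 253, 98.9 and 210 in BL LRC, and 394, 303 and 234 in BL non-LRC. Only 1 of 2 GL arrays was above background, so the size of the difference is not given. GL lay below every BL array and every SL array, with an adjusted p of 3.58e-04 against BL and 0.00524 against SL. The SL arrays overlapped with BL, and no call was made between these layers. Without GL 1 the call against SL was lost (adjusted p = 0.153).

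The promoters of these genes are shown to set carriers of opposite direction side by side. Each stretch runs from 150 bases before the start of a transcript to 10 bases after it, in RefSeq sequence of GRCm38.p6, and capitals mark any of 3 motifs: TGATGNAA (an Atf4 and C/EBP core), CACGTG (an E-box) and TGANTCA (an AP-1 site), searched on both strands with no overlaps found. Slc43a2 (chr11:75531544-75531703, plus strand) and Slc7a8 (chr14:54781877-54782036, minus strand) hold none, Slc36a1 (chr11:55204190-55204349, plus strand) holds 2 E-boxes and Slc43a1 (chr2:84840173-84840332, plus strand) holds 1 E-box. Slc7a1 (chr5:148399895-148400054, minus strand) holds an AP-1 site and Slc1a4 (chr11:20332704-20332863, minus strand) an Atf4 core, read here on the opposite strand. The stretches of Slc43a2 and Slc43a1 lie inside the annotated span of their genes, and Slc43a2 and Slc7a1 each have a further start that is not printed.
Slc43a2, higher in GL: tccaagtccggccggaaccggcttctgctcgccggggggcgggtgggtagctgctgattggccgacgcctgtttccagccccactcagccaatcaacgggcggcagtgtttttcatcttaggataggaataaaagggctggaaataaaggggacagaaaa
Slc7a8, higher in GL: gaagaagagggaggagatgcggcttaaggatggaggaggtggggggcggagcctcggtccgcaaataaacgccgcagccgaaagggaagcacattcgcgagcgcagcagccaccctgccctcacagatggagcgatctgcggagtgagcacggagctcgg
Slc36a1, higher in GL: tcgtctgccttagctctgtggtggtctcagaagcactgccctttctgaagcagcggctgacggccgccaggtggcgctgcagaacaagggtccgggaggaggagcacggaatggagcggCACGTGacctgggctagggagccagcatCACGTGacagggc
Slc43a1, lower in GL: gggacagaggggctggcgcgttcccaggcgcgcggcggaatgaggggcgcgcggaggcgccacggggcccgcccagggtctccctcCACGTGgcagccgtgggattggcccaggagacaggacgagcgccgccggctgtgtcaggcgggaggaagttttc
Slc7a1, lower in GL: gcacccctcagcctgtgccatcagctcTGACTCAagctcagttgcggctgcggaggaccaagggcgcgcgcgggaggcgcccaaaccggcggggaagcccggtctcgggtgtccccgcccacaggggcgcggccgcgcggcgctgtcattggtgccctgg
Slc1a4, lower in GL: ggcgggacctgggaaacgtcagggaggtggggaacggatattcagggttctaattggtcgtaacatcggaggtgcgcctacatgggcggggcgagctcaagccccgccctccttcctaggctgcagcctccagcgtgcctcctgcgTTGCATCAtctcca

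Promoter windows of 300 bases were found for 45 of the 62 genes, 66 windows in all. TGATGNAA was in 5 of the 66, against 3.97% of 32851 windows of the same length, CACGTG in 9 (7.15% of all windows) and TGANTCA in 10 (7.81%). Among the 5 genes higher in GL than in BL that had a window, 1 held an E-box and none held the other motifs. Of the 7 such genes lower in GL, 1 held the Atf4 core, 2 the E-box and 1 the AP-1 site. These matches describe the letters of the windows alone.

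Slc7a1 (CAT1, chr5:148327410-148399904), the main uptake route for arginine and lysine in many cells, fell in GL. Its signals were 766 and 794 in GL, 1246 and 1467 in SL LRC, 1298 and 1280 in SL non-LRC, 1818, 2040 and 1879 in BL LRC, and 2062, 2147 and 2102 in BL non-LRC. The 3 layers did not overlap in the probe set used. The log2 difference was -1.36 ± 0.16 for GL against BL (adjusted p = 9.93e-06), -0.76 ± 0.17 for GL against SL (adjusted p = 0.00848), and -0.60 ± 0.12 for SL against BL (adjusted p = 0.00729). The GL against SL call was lost without GL 1 (adjusted p = 0.0871) or GL 2 (0.0501), and SL LRC against BL LRC, on the high-BioB arrays alone, gave -0.53 (adjusted p = 0.279). Both other probe sets of the gene were called in GL against BL. In GL against SL 1 of them was called and 1 was not (-0.22, adjusted p = 0.736), and in SL against BL neither was (-0.62 and -0.45, adjusted p = 0.0985 and 0.161). Slc7a14, a lysosomal member of the same family, was above background on 0 of 2 GL arrays and 5 of 6 BL arrays, and was at least 1.68-fold lower in GL than in BL (adjusted p = 0.0286). Its other probe set had a difference of 1.16 in the opposite direction that was not called, and the call was lost without GL 2 (adjusted p = 0.261), GL 1 (0.0548), BL LRC 1 (0.0520) or BL non-LRC 2 (0.0552).

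Of the sodium-coupled carriers of small neutral amino acids, Slc38a1 rose in GL while Slc38a2 and Slc1a4 fell. Slc38a1 (SNAT1), which takes up glutamine, had signals of 722 and 316 in GL, 43 and 49.4 in SL LRC, 102 and 71.8 in SL non-LRC, 64.2, 44.5 and 51.4 in BL LRC, and 32.9, 54.4 and 61.3 in BL non-LRC. Both GL arrays were above all others, and SL and BL overlapped. The log2 difference was 3.25 ± 0.52 against BL (adjusted p = 2.55e-04) and 2.93 ± 0.55 against SL (adjusted p = 0.00268). The call against SL was lost without GL 1 (2.33, adjusted p = 0.105).

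Slc38a2 (SNAT2), which many cells induce when amino acids run short, lies near Slc38a1 on chromosome 15 (Slc38a1 at 96571418-96643438, Slc38a2 at 96687392-96699728) and had signals of 4143 and 5427 in GL, 6715 and 6614 in SL LRC, 4336 and 4600 in SL non-LRC, 7249, 7488 and 8094 in BL LRC, and 6047, 6460 and 5776 in BL non-LRC. GL lay just below BL on every array and overlapped with SL. SL against BL was not called, but passed as lower in SL with quantile normalisation (-0.36, adjusted p = 0.0387) and with the mean of its probe sets (-0.52, adjusted p = 0.0181). The log2 difference between GL and BL was -0.52 ± 0.13 (adjusted p = 0.0105), and it was -0.33 without GL 1 (adjusted p = 0.268). Slc38a4, in the same stretch of chromosome 15, was called in no comparison.

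Slc1a4 (ASCT1, chr11:20302180-20332713), an exchanger of serine, alanine and cysteine, had signals of 1107 and 786 in GL, 650 and 833 in SL LRC, 1778 and 1990 in SL non-LRC, 4376, 1977 and 1929 in BL LRC, and 2759, 1832 and 1624 in BL non-LRC. Both GL arrays were below all BL arrays, at -1.28 ± 0.28 (adjusted p = 0.00401), and the call was lost without GL 2 (-1.04, adjusted p = 0.0989). SL against BL gave -0.95 ± 0.22 (adjusted p = 0.0181) with overlapping arrays, and this call was lost without SL LRC 1 (adjusted p = 0.0998) or SL non-LRC 1 (0.0904). Of 2 other probe sets, 1 was called in both comparisons and 1 in neither (-0.92, adjusted p = 0.0777 for GL against BL, and -0.51, adjusted p = 0.401 for SL against BL). Slc38a3 (SNAT3), a glutamine carrier, had signals of 35.5 and 26.5 in GL, 14.4 and 17.5 in SL LRC, 30 and 41.4 in SL non-LRC, 91.2, 115 and 74 in BL LRC, and 62, 62.4 and 89.4 in BL non-LRC. SL lay below all BL arrays but was above background on 2 of 4, so no size is given (adjusted p = 0.0330). That call was lost without any 1 of the 10 SL and BL arrays, with adjusted p-values of 0.0516 to 0.131, and a further probe set was not called.

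In the Slc36a family 3 of 5 symbols were higher in GL than in BL, a direction taken by 8.66% of all genes, and 1 of the other 2 is Slc36a1os. Slc36a1 and Slc36a2 couple the transport of small amino acids to protons, whereas Slc36a4 carries proline and tryptophan without protons. Slc36a4 (PAT4, chr9:15709738-15742388) had signals of 802 and 1033 in GL, 268 and 245 in SL LRC, 375 and 478 in SL non-LRC, 309, 324 and 206 in BL LRC, and 412, 291 and 357 in BL non-LRC. The GL pair was above every other array. The log2 difference was 1.56 ± 0.28 against BL (adjusted p = 7.28e-04) and 1.47 ± 0.29 against SL (adjusted p = 0.00446), and the second call was lost without GL 2 (adjusted p = 0.0784).

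Slc36a1 (PAT1), which moves amino acids out of lysosomes, had signals of 536 and 706 in GL, 313 and 375 in SL LRC, 424 and 413 in SL non-LRC, 272, 190 and 196 in BL LRC, and 91.5, 200 and 270 in BL non-LRC. GL was highest and BL lowest, with no overlap between the 3 layers. GL against BL gave 1.68 ± 0.36 (adjusted p = 0.00357), lost without GL 2 (1.48, adjusted p = 0.0737). SL against BL gave 0.98 ± 0.29 (adjusted p = 0.0632), which was the nearest to a call among the other genes of that comparison. With the array set in the model it passed (1.05, adjusted p = 0.0429). Slc36a2 (PAT2), the neighbour of Slc36a1 on chromosome 11 (Slc36a2 at 55158468-55185099, Slc36a1 at 55204322-55236330), had 204 and 88.1 units in GL and was above background on 1 of 4 SL and 0 of 6 BL arrays. It was at least 4.68-fold higher in GL than in BL (adjusted p = 0.00283), which was lost without GL 1 (adjusted p = 0.0742). Against SL its adjusted p was 0.0383, with no size given, and 0.0730 to 0.302 when GL 1, GL 2, SL LRC 1, SL LRC 2 or SL non-LRC 2 was left out.

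**Figure D2:**
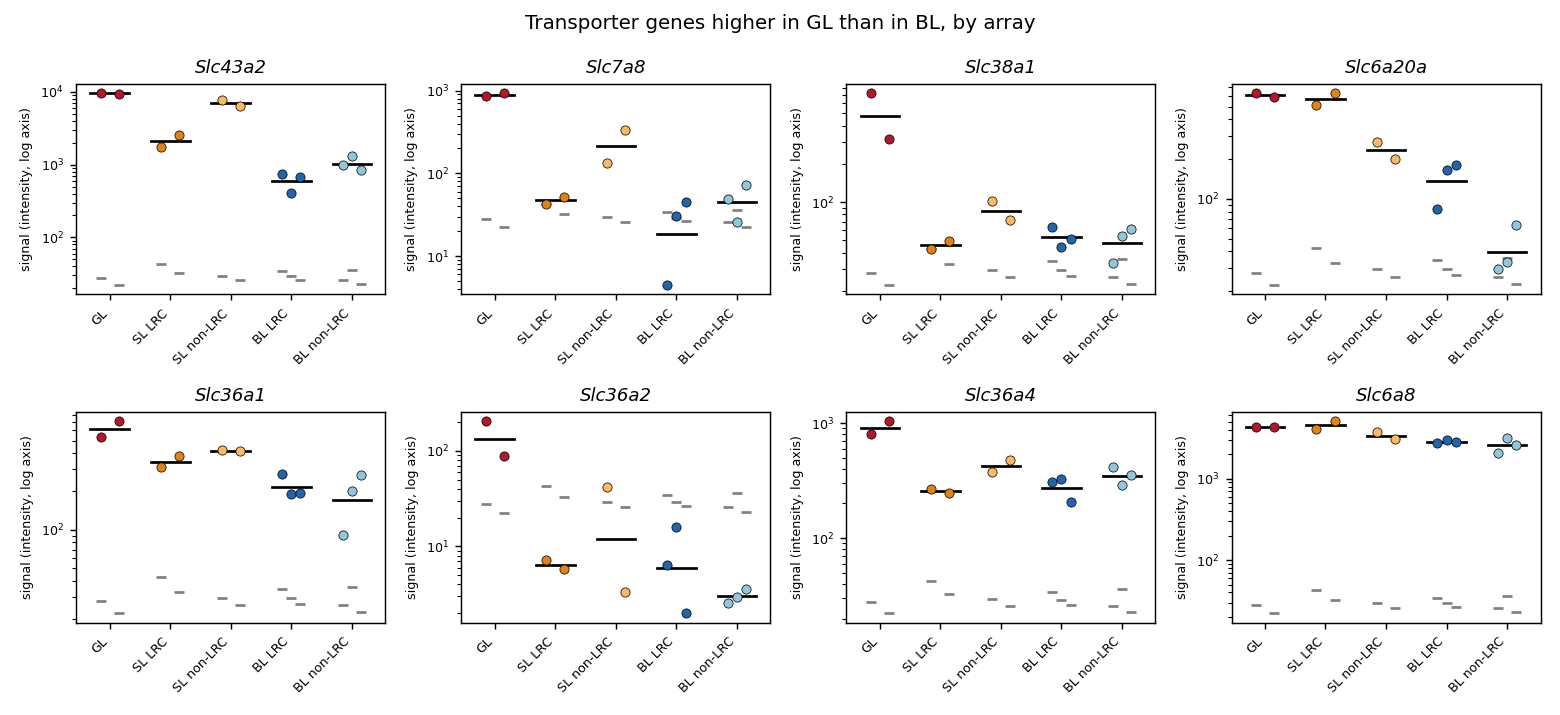
Signal of the 8 genes higher in GL than in BL (log axis, intensity units), 1 point per array, with a black bar at each group's mean log2 signal and grey ticks at each array's background. Slc43a2 climbs from BL through SL to GL, while the Slc36a4 and Slc38a1 points stand apart in GL alone.

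In the Slc6a family 5 of 21 genes differed between GL and BL (23.8%, against 17.1% of all genes). Slc6a20a (chr9:123636907-123678832), a proline and imino acid carrier, had signals of 630 and 590 in GL, 511 and 631 in SL LRC, 271 and 201 in SL non-LRC, 83.8, 165 and 181 in BL LRC, and 29.5, 33 and 63.4 in BL non-LRC. Every SL array was above every BL array, and the SL LRC arrays reached the level of GL. BL non-LRC 2 was not above its background of 35.9 units, so the sizes against BL include 1 such signal. GL against BL gave 3.06 ± 0.41 (adjusted p = 5.22e-05) and SL against BL 2.31 ± 0.33 (adjusted p = 3.31e-04). On the high-BioB arrays alone SL LRC exceeded BL LRC by 1.71 (adjusted p = 0.0770). The creatine carrier Slc6a8, on chromosome X, had signals of 4344 and 4319 in GL, 4044 and 5064 in SL LRC, 3708 and 3087 in SL non-LRC, 2718, 3020 and 2861 in BL LRC, and 2050, 3148 and 2622 in BL non-LRC. GL stood above all BL arrays, and SL overlapped with BL.

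The log2 difference of Slc6a8 was 0.68 ± 0.17 for GL against BL (adjusted p = 0.00887) and 0.53 ± 0.13 for SL against BL (adjusted p = 0.0256). The first was lost without GL 1 (adjusted p = 0.0864) or GL 2 (0.0742). The second was lost without BL LRC 1 (0.0502), BL LRC 3 (0.0537), SL LRC 2 (0.147) or SL non-LRC 1 (0.146), and SL LRC against BL LRC on the high-BioB arrays alone was not called (0.116). The taurine carrier Slc6a6 (chr6:91684048-91759063) had signals of 6349 and 3766 in GL, 3956 and 3690 in SL LRC, 4367 and 3155 in SL non-LRC, 8372, 10986 and 9706 in BL LRC, and 6043, 8275 and 5915 in BL non-LRC. All SL arrays lay below all BL arrays, at -1.09 ± 0.16 (adjusted p = 3.57e-04), while GL overlapped with BL at -0.71 ± 0.20 (adjusted p = 0.0179) and lost its call without GL 2 (-0.34, adjusted p = 0.429). The other 3 probe sets of the gene, all of lower mean signal, gave -1.37 to -1.30 for GL against BL and were all called (adjusted p = 3.75e-05 to 2.63e-04).

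Both monoamine carriers called among the Slc6a genes fell in GL. Slc6a4, the serotonin carrier (chr11:76998597-77032343), had signals of 253 and 173 in GL, 990 and 934 in SL LRC, 839 and 435 in SL non-LRC, 1332, 2025 and 1595 in BL LRC, and 2194, 2094 and 1347 in BL non-LRC. GL lay below SL and SL below BL, without overlap. The log2 difference was -3.05 ± 0.27 for GL against BL (adjusted p = 6.27e-07), -1.86 ± 0.29 for GL against SL (adjusted p = 5.85e-04), and -1.18 ± 0.22 for SL against BL (adjusted p = 0.00289). On the high-BioB arrays alone, which hold no SL non-LRC array, SL LRC against BL LRC gave -0.90 (adjusted p = 0.182).

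Slc6a2, the noradrenaline carrier (chr8:92960470-93001667), had signals of 665 and 282 in GL, 3258 and 1643 in SL LRC, 2623 and 1977 in SL non-LRC, 6575, 5252 and 4176 in BL LRC, and 6813, 3474 and 1851 in BL non-LRC. The GL arrays were below all others, and SL overlapped with BL. SL against BL was not called (-0.91). It passed as lower in SL with the mean of the probe sets (adjusted p = 0.034) and the array set in the model (0.0249). It also passed with the replicate block (-1.22, adjusted p = 7.44e-04). A further probe set was called lower in SL than in BL (-1.45, adjusted p = 0.0035). The remaining ones were not (-0.98 and -0.65, adjusted p = 0.13 and 0.18). GL against BL gave -3.31 ± 0.39 (adjusted p = 1.28e-05) and GL against SL -2.41 ± 0.41 (adjusted p = 0.00142), and the other 3 probe sets of the gene were called in the same direction. Without GL 2 the difference from SL was -1.79 (adjusted p = 0.0543).

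**Figure D3:**
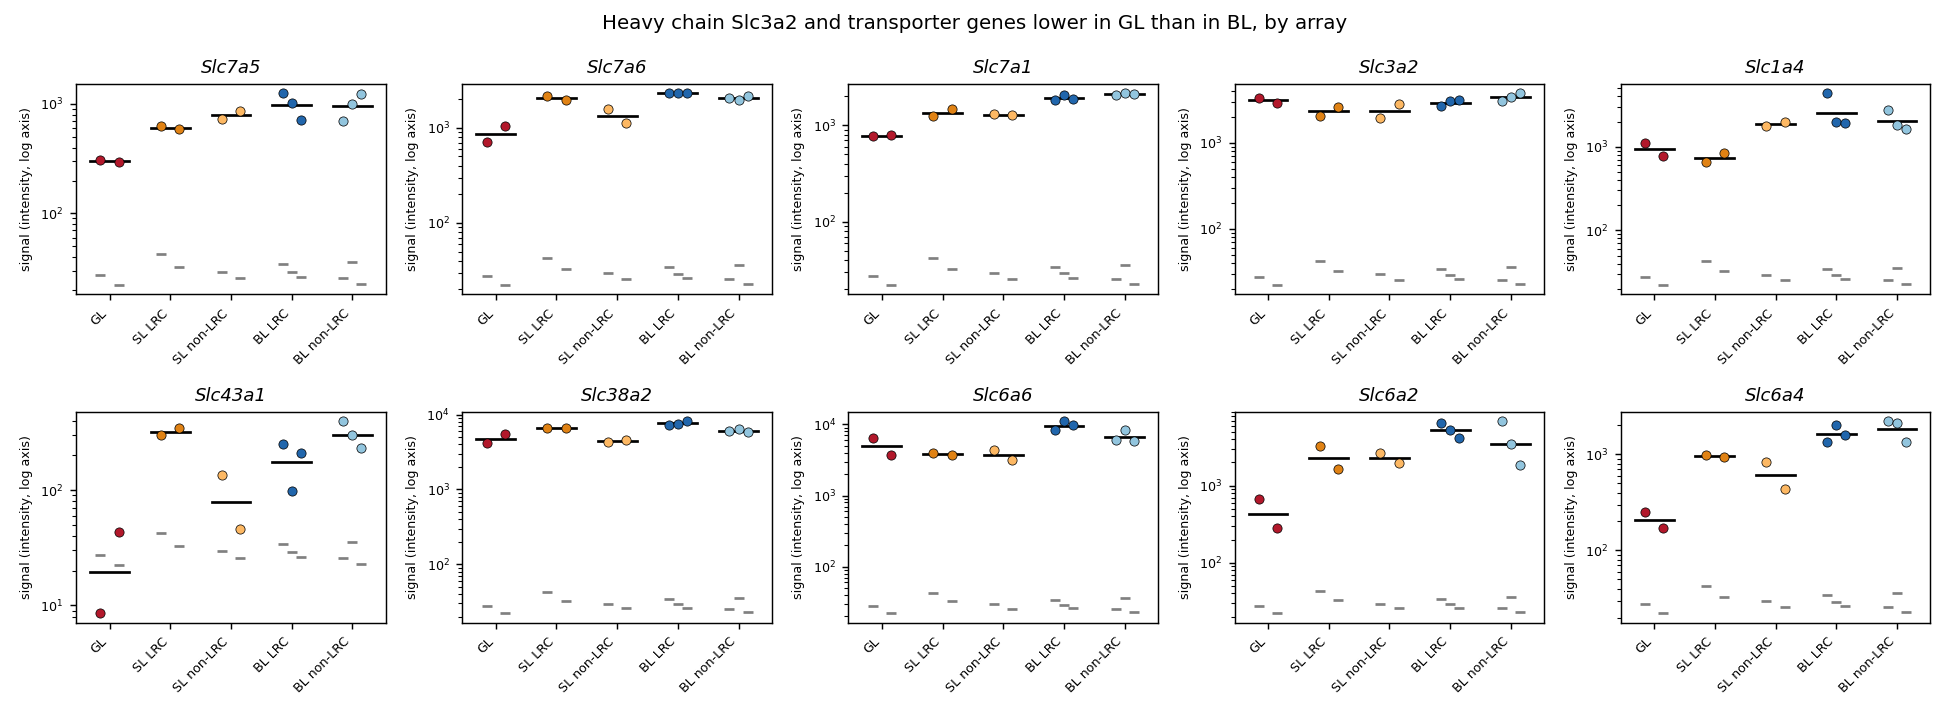
Signal of the heavy chain Slc3a2 and of 9 genes lower in GL than in BL (log axis, intensity units), 1 point per array, with a black bar at each group's mean log2 signal and grey ticks at each array's background; Slc7a14 is left out. Slc6a4 and the Slc7a1 probe set shown are lowest in GL and highest in BL, whereas the Slc3a2 points of GL lie among those of BL.

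Markers of other cell types moved with the GL fraction. The sum of 9 Langerhans and myeloid markers was 64598 units on GL 1 and 29541 on GL 2, 1255 to 8708 on the SL arrays and 1442 to 3286 on the BL arrays, and 8 of the 9 were higher in GL than in BL. All 9 were above background on both GL arrays. Of 5 T cell markers 4 were higher in GL than in BL, with sums of 24059 units on GL 1 and 7738 on GL 2, 2184 to 4385 in SL and 3836 to 7875 in BL. The marker not higher, Thy1, had 5220 and 1372 units in GL and 3144 to 7216 in BL, and makes up most of the BL sums. Cd3g, 1 of the 4 higher, had 8775 and 3389 units in GL and 216 to 471 in BL. Of 8 melanocyte markers 3 were higher in GL than in BL (2171 and 3162 units in GL, 600 to 813 in BL), as were 6 of 7 hair follicle bulge markers (28250 and 27918 in GL, 2899 to 8738 in BL). Of 5 inner root sheath markers 4 were higher and Gata3 was lower in GL than in BL, with sums of 5734 and 8917 units in GL and 6368 to 11024 in BL, and of 9 sebaceous and infundibulum markers 4 were higher and 1 lower (44089 and 44552 in GL, 11586 to 66287 in BL). Between SL and BL, 4 of 7 bulge markers were higher in SL (4762 to 18834 units in SL, 2899 to 8738 in BL), as were 4 of 5 inner root sheath markers (5459 to 13510 in SL) and 2 of 9 sebaceous and infundibulum markers, and 1 of 5 T cell markers was lower. The part of these cells in the transporter differences was not tested.

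Label retention was tested within each layer. In SL, 2 of 62 genes differed between label-retaining and other cells (3.23%, against 4.19% of all genes), both lower in SL LRC; Slc38a2 and Slc7a6, which were higher there, passed under other settings given below. Of all genes 2.7% were lower and 1.49% higher. Slc43a2 had 1741 and 2532 units in SL LRC against 7658 and 6350 in SL non-LRC, a log2 difference of -1.73 ± 0.28, adjusted p = 0.00192. Without the mean-variance trend in the fit this difference did not pass (adjusted p = 0.0696). A model with the array set gave -1.55 ± 0.37 (adjusted p = 0.0428), and of 2 further probe sets both had the same sign and 1 was called. That model reads the set effect from BL alone, as BL LRC 1 and BL non-LRC 1 against the other BL arrays. These 2 arrays had 0 of 3 Y-linked genes above background, while both SL non-LRC arrays had 3 of 3. It therefore cannot separate label from array set in SL, here or for the SL label values below. Slc43a2 was also lower on all 3 BL LRC arrays than on any BL non-LRC array, but that difference did not pass (-0.79 ± 0.23, adjusted p = 0.127).

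Slc1a4 had 650 and 833 units in SL LRC against 1778 and 1990 in SL non-LRC, a log2 difference of -1.35 ± 0.35, adjusted p = 0.0347. With the array set in the model it was -0.43 (adjusted p = 0.617), and 2 other probe sets gave -0.15 and -0.04, neither called. BL LRC 1 and BL non-LRC 1, the BL arrays of the low set, also had the highest Slc1a4 signals of their groups. Leaving out any 1 of the 4 SL arrays ended the call, with adjusted p-values of 0.0898 without SL LRC 2, 0.110 without SL non-LRC 1, 0.220 without SL non-LRC 2 and 0.242 without SL LRC 1. Slc38a2 came nearest to a call among the rest, with 6715 and 6614 units in SL LRC against 4336 and 4600 in SL non-LRC (0.58 ± 0.16, adjusted p = 0.0549). It passed with arrays centred on their medians (adjusted p = 0.0331), with quantile normalisation (0.0231) and with the background filter (0.0455), and with the array set in the model it gave 0.52 (0.259). Slc7a6 was also higher in SL LRC on both arrays (0.63 ± 0.22, adjusted p = 0.14). Its other probe set was called (1.10 ± 0.22, adjusted p = 0.00874), as was the mean of its probe sets (0.87, adjusted p = 0.0105). Over the 62 genes the median was 0.02, against -0.0013 over all genes.

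In BL, 1 of 62 genes differed with the label (1.61%, against 1.53% of all genes), and it was higher in BL LRC. Of all genes 0.308% were higher and 1.23% lower. Slc6a20a had 83.8, 165 and 181 units in BL LRC against 29.5, 33.0 and 63.4 in BL non-LRC, a log2 difference of 1.78 ± 0.41, adjusted p = 0.0382 that includes the BL non-LRC 2 signal under background. The groups did not overlap. Its call was lost without replicate 2 or 3 of BL LRC (adjusted p = 0.157 and 0.188), without replicate 1 or 2 of BL non-LRC (0.0972 and 0.0916), and on the high-BioB arrays alone (1.92, adjusted p = 0.0674). It was also lost without SL LRC 1 (0.0600), SL LRC 2 (0.0612), SL non-LRC 1 (0.0522), GL 1 (0.0578) or GL 2 (0.0581), which enter only through the shared estimate of the spread. Slc38a4 came nearest to a call among the rest (adjusted p = 0.100), and was above background on 1 of 3 BL LRC and 3 of 3 BL non-LRC arrays. The median of the 62 genes was 0.16, against 0.046 over all genes.

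The label effect in SL minus that in BL was called for 0 of 62 genes and 0% of all genes by limma, with 6 of the 62 and 1291 of all genes at an unadjusted p under 0.05. Slc1a4 had the smallest adjusted p among the 62 (-1.69 ± 0.45, adjusted p = 0.455). Markers of the sebaceous gland and infundibulum moved with the label in both layers: 8 of 9 were lower in SL LRC (24226 and 26326 summed units, against 63383 and 74889 in SL non-LRC), and 9 of 9 in BL LRC (11586 to 14326, against 31362 to 66287 in BL non-LRC). Of 6 spinous markers 3 were higher in SL LRC (127500 and 137930 units, against 78747 and 92120 in SL non-LRC), and 2 in BL LRC (87534 to 108880, against 58985 to 80707 in BL non-LRC). Of 7 bulge markers 4 were lower and 1 higher in SL LRC (4762 and 5049 units, against 16428 and 18834 in SL non-LRC), and 2 were lower in BL LRC (2899 to 3326, against 5863 to 8738 in BL non-LRC). In SL LRC 3 of 9 Langerhans and myeloid markers (1255 and 1808 units, against 3654 and 8708 in SL non-LRC) and 2 of 8 melanocyte markers were also lower, and 1 of 5 inner root sheath markers was higher. The part of all these markers in the label differences was not tested.

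**Figure D4:**
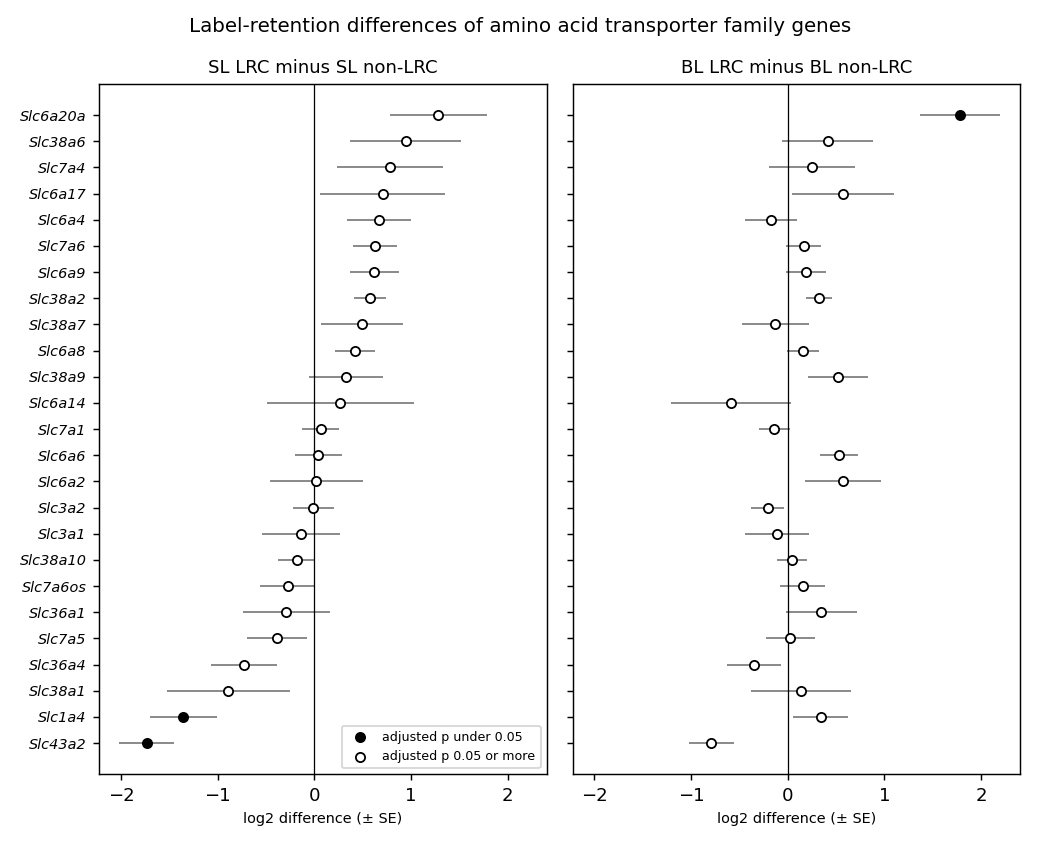
Log2 difference (± SE, horizontal axis) between label-retaining and other cells in SL and in BL for the 24 genes above background on all arrays and for Slc6a20a; filled points have an adjusted p under 0.05. Slc43a2 and Slc1a4 are called lower in SL LRC and Slc6a20a higher in BL LRC, and the other 22 genes are called in neither layer.

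Several carriers with signal on every array were called in no comparison of the fit used above. Slc38a10 had 5653 and 5803 units in GL, 5306 to 7023 in SL and 5157 to 7181 in BL, overlapping throughout, with a log2 difference of -0.06 ± 0.15 between GL and BL (adjusted p = 0.865). The glycine carrier Slc6a9 gave -0.40 ± 0.21 (adjusted p = 0.229) in the same comparison, with overlap. With the mean of its probe sets Slc6a9 was called lower in GL than in BL (-0.72 ± 0.21, adjusted p = 0.0334). So was Slc7a6os (-0.92 ± 0.20, adjusted p = 0.00454). Slc6a14, a broad sodium- and chloride-coupled uptake carrier, came nearest to a call between GL and BL with 403 and 171 units in GL and 43.5 to 241 in BL (1.60 ± 0.62, adjusted p = 0.0937). Its BL arrays of the low BioB set had the highest BL signals, and the difference was 2.12 with the array set in the model (adjusted p = 0.0139) and on the high-BioB arrays alone (adjusted p = 0.0301).

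Genes that handle amino acids inside the cell gave a mixed picture. In the Gcn2 and Atf4 response list, 24 of 27 genes were measured, and 2 were higher and 7 lower in GL than in BL, where 8.66% of all genes were higher and 8.41% lower, with a median log2 difference of -0.21 (-0.023 over all genes). With GL 1 or GL 2 left out, the lower calls of Gpt2 (-0.99 and -0.94, against -0.96) and Vldlr (-1.06 and -1.18, against -1.12) were lost. So were those of Cth without GL 2 (-1.96, against -3.05) and Shmt2 without GL 1 (-0.97, against -1.23). Each such fit leaves 1 GL array. The serine synthesis enzymes Psat1 (-1.84 ± 0.14, adjusted p = 1.07e-07) and Phgdh (-2.14 ± 0.26, adjusted p = 1.49e-05) fell, as did Cbs, the first enzyme of cysteine synthesis (-2.56 ± 0.25, adjusted p = 1.56e-06). Against SL none was higher and 4 were lower in GL (3.91% of all genes), among them Psat1 (-1.54 ± 0.15, adjusted p = 7.19e-06), Cbs (-2.33 ± 0.26, adjusted p = 3.69e-05) and the alanine enzyme Gpt2 (-1.76 ± 0.27, adjusted p = 4.92e-04). With label retention 3 genes of the list were lower in SL LRC (2.7% of all genes) and 2 in BL LRC (1.23%). Phgdh had the smallest p of the list in SL LRC (-1.89 ± 0.31, adjusted p = 0.00226), and its call was lost without SL non-LRC 2 (0.0521). Psph, the last enzyme of serine synthesis, fell in BL LRC (-2.28 ± 0.33, adjusted p = 0.00116) and in SL LRC (-1.92 ± 0.41, adjusted p = 0.0123), and so did the transcription factor Cebpb (-1.55 ± 0.26, adjusted p = 0.00396 in BL and -1.33 ± 0.32, adjusted p = 0.0243 in SL). The Cebpb call in SL was lost without any 1 of the 4 SL arrays (adjusted p = 0.0803 to 0.192), and that of Psph without SL LRC 1 (0.114), SL LRC 2 (0.0541) or SL non-LRC 2 (0.195). With the array set in the model none of the 3 SL calls passed (adjusted p = 0.0529 for Cebpb, 0.0741 for Phgdh and 0.0781 for Psph). Between SL and BL 3 genes were higher (2.83% of all genes) and 2 lower (2.2%) in SL. Among them were Nupr1 (1.28 ± 0.19, adjusted p = 6.41e-04), Vldlr (-1.42 ± 0.23, adjusted p = 0.00125) and Phgdh (-1.15 ± 0.20, adjusted p = 0.0022).

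Of 12 measured enzymes of glutamine, glutamate and arginine metabolism, 2 were higher (8.66% of all genes) and 3 lower (8.41%) in GL than in BL. The higher call of Arg2 was lost with GL 1 or GL 2 left out (1.42 and 1.29, against 1.36). Without GL 1 the lower calls of Glud1 (-0.58, against -0.89) and Prodh (-1.37, against -1.81) were lost. Oat, which links ornithine to glutamate, fell (-2.44 ± 0.17, adjusted p = 4.92e-08) and Hal, which breaks down histidine, rose (2.20 ± 0.41, adjusted p = 0.0011). Glutamine synthetase, Glul, was lower in SL LRC than in SL non-LRC (-1.65 ± 0.20, adjusted p = 2.40e-04), and the proline oxidase Prodh was higher (2.44 ± 0.62, adjusted p = 0.0336; 0.273 with the array set in the model). The Prodh call was lost when SL LRC 1 was left out (0.418), and also without either SL non-LRC array (0.208 and 0.107). In the glutathione list, 2 of 6 genes were higher and 2 lower in GL than in BL, against the same shares of all genes: the subunits of the first enzyme of glutathione synthesis, Gclc (1.46 ± 0.22, adjusted p = 1.38e-04) and Gclm (1.70 ± 0.30, adjusted p = 5.78e-04), rose, and Gpx1 fell (-1.30 ± 0.14, adjusted p = 4.04e-06). The other lower call, that of Gsr, was lost without GL 2 (-0.45, against -0.70). Gclm was lower in BL LRC than in BL non-LRC (-1.70 ± 0.30, adjusted p = 0.00524). In SL LRC 2 of the 6 genes were lower than in SL non-LRC (2.7% of all genes), Gclm (-1.53) and Gpx4 (-1.29). The Gclm call was lost without any 1 of the SL arrays (-1.62 to -1.43). That of Gpx4 was lost without SL LRC 1 (-0.71) or either SL non-LRC array (-1.52 and -1.06).

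Genes of mTORC1 amino acid sensing were measured for 31 of 35, and 2 were higher and 2 lower in GL than in BL (8.66% and 8.41% of all genes), with a median of -0.030. The leucine-sensor relative Sesn3 rose (1.84 ± 0.24, adjusted p = 4.26e-05) and the mTOR-binding inhibitor Deptor fell (-1.16 ± 0.19, adjusted p = 3.08e-04). The higher call of Sesn1 was lost without GL 2 (0.69, against 1.05), and the lower call of Fnip2 without GL 1 (-0.71, against -0.80). No gene of this list was called in SL against BL or with label retention. Of 14 other amino acid carriers, 1 was higher and 3 lower in GL than in BL, where 17.1% of all genes differed: the lysosomal cystine exporter Ctns rose (1.41 ± 0.41, adjusted p = 0.0235), and the mitochondrial carriers Slc25a29 and Slc25a15 and the aromatic amino acid carrier Slc16a10 fell. Without GL 1 the calls of Ctns (adjusted p = 0.0767), Slc25a29 (0.0653), Slc16a10 (0.0525) and Slc25a15 (0.171) were lost, and without GL 2 those of Ctns (0.235), Slc16a10 (0.146) and Slc25a15 (0.217). Slc25a15 was also lost without either SL LRC array, without replicate 1 or 2 of BL LRC, or without replicate 1 or 2 of BL non-LRC (0.0528 to 0.0809). Of 10 branched-chain amino acid enzymes 1, Dld, was lower in GL than in BL (-0.86 ± 0.21, adjusted p = 0.00717), a call lost without GL 1 (0.123), and of 18 aminoacyl-tRNA synthetases none was called in that comparison. The medians of these 3 lists were -0.18, -0.22 and -0.11, against -0.023 over all genes.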

How the data were processed

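Total RNA of sorted cells (5 ng per sample) was amplified with the NuGEN Ovation Pico WTA kit, labelled with biotin and hybridised to mouse expression arrays, per the labels' protocols. The authors deposited intensity values on a linear scale, brought to 500.0 as the 2% trimmed mean of each array, with a floor at 1, as recomputed from the values. The summarisation software is not given in the sources used here. Log2 was taken with nothing added, although the design had assumed log2 values. Of 45101 probe sets, the 34945 with 1 gene in the platform annotation were used, and the one of highest mean stood for its gene. Of the 62 genes 31 had several probe sets, and 1 probe set that maps to several genes was left out. With 2 or 3 arrays a group, their number limits the precision.

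One model of 5 group means over 12 arrays was fitted with limma 3.58.1 in R 4.3.3, letting the prior variance follow mean signal (the mean-variance trend), and p-values were adjusted by Benjamini-Hochberg over all 18193 genes, with calls at 0.05. A ± after a log2 difference is its moderated standard error. SL and BL are means of their LRC and non-LRC groups. A gene not above background on any array of a side has "at least" a fold, taken against the background, and no size is given where a side was above it in part and its mean was not, or was level with it.

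The genes, the lists of pathway and marker genes and the tests were chosen with earlier results of these data known. Genes are named where called in a comparison, among the 10 of highest mean, as heavy or light chains, as nearest to a call, or never above background. In lists they are named as up to 3 of smallest p in a comparison, or where leaving out an array lost the call. Gene positions and promoter sequences come from RefSeq tables of GRCm38.p6. The fit was tested on simulated data. Alternatives were median centring, quantile normalisation, 50 units added before log2, a background filter, the mean of all probe sets, the array set as a term, the high-BioB arrays alone (SL LRC then standing for SL and, against it, BL LRC for BL), a replicate block, no trend and leaving out each array. Figures used Python 3.11.15, pandas 2.3.3 and matplotlib 3.10.9.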

Additional observations from a re-analysis of the deposited data

How the results depend on the processing

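The comparisons called 1 gene (BL label), 2 (SL label), 8 (SL against BL), 11 (GL against SL), 18 (GL against BL) and 0 (label by layer) of the 62, and no called gene reversed its direction under any alternative. In the BL label comparison 0 genes were called with quantile normalisation, with 50 units added, on the high-BioB arrays alone and without the mean-variance trend. In the SL label comparison 1 was called with the array set as a term and 0 without the trend. SL against BL gave 5 without the trend, and on the high-BioB arrays alone, where it becomes SL LRC against BL LRC because both SL non-LRC arrays are in the low set, 3, and GL against SL 5 without the trend. Leaving out 1 array at a time gave 0 to 1, 1 to 3, 5 to 9, 4 to 11, 13 to 20 and 0 to 0 genes in the same order of comparisons. The lowest count of GL against SL was without GL 1 (4, and 5 without GL 2), and that of SL against BL without SL non-LRC 1. Of 40 calls 16 were lost without the trend and at most 4 under any other setting run on all of them. Refitting each of the 40 calls without each array in turn gave 480 results, of which 58 lost the call. Arrays outside the comparison are among those left out, so this share does not show how many of the 40 calls rest on 1 array. In GL and in each SL group, leaving 1 out leaves a single array. The losses with an array of the comparison left out are given with each gene above. Without the trend the calls lost were Slc6a20a (BL label), Slc43a2 and Slc1a4 (SL label), and Slc1a4, Slc6a4 and Slc6a8 (SL against BL). Between GL and SL they were Slc43a2, Slc7a5, Slc7a6, Slc7a8, Slc6a2 and Slc36a2, and between GL and BL Slc1a4, Slc38a2, Slc6a6 and Slc6a8. Slc36a2 also lost its GL against SL call with quantile normalisation, the background filter and the array set. Losses under the other settings are not all given.

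Over all genes the calls without the trend were 72, 150, 374, 713 and 2220, against 279, 763, 915, 1510 and 3106. On the high-BioB arrays alone they were 136 for the BL label and 282 for SL LRC against BL LRC, in place of SL against BL, and with the array set as a term 320 for the SL label and 5 for label by layer. With an array left out they ranged over 131 to 288, 209 to 862, 529 to 985, 575 to 1617, 1652 to 3159 and 0 to 6. Centring arrays on their medians moved the median of all genes to 0.12 for the SL label, -0.19 for GL against SL and -0.16 for GL against BL, and the share of lower calls to 51.1%, 64.8% and 60.9%, against 64.5%, 47.1% and 49.3%. The transporter calls stayed at 5 higher and 6 lower in GL against SL and 8 higher and 10 lower in GL against BL, and became 1 higher and 2 lower for the SL label, against 0 higher and 2 lower, as Slc38a2 passed. The cause of these changes was not tested.

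Across genes, same-numbered BL LRC and BL non-LRC samples deviated together with r = 0.111, 0.054 and 0.064. Differently numbered ones gave r = -0.061 to -0.0017. Deviations from a group mean cancel within the group, so these negative values follow from the positive ones and are no separate evidence. BL LRC 1 and BL non-LRC 1 also shared the low BioB set and had 0 of 3 Y-linked genes above background. Whether same-numbered BL samples were matched is not stated, and the fit used above did not pair them. With the replicate block 4 genes were called for the SL label (Slc38a2 and Slc6a20b besides the 2 lower ones, adjusted p = 0.0484 and 0.0487), 9 for SL against BL, 12 for GL against SL and 19 for GL against BL, and the call of Slc38a3 between SL and BL was lost (adjusted p = 0.0818). Signal near background limits what can be said of the 38 genes that were not above it on every array.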
